A study of Mus musculus with 4 samples.

Results

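Mature dendritic cells that carried transcripts of Ccr7 and Fscn1 made up 65 of 20892 cells in mouse mammary tumors profiled by single-cell RNA sequencing. Each cell was a barcode with at least 2000 unique molecular identifiers (UMIs, counted RNA molecules), of which at most 20% came from mitochondrial genes. The members were chosen by measured levels, namely those of the genes in the rule that follows. A cell was taken as mature when Ccr7 and Fscn1 were both detected and together reached at least 5 UMIs per 10000. It also needed at least 20 per 10000 for the MHC class II genes Cd74, H2-Aa, H2-Ab1 and H2-Eb1, under 10 for C1qa, C1qb and C1qc, under 5 for Epcam, Krt8 and Krt18, and no UMI of Cd3e or Cd79a. Cells that met the same exclusions, had at least 50 per 10000 of the class II genes and were not mature by this rule served as the comparison. There were 576 of them, a mixture of other class II-high cells that is called the comparison cells below.

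The mammary tumors came from mice of 2 genotypes at 17 to 18 weeks of age, with 4 libraries in all, each taken as 1 mouse. Cells were sorted before capture, by a gate not given in the sources used here. All mice carried PyMT, a viral oncogene driven by the mouse mammary tumor virus (MMTV) promoter, and 2 floxed copies of Frmd8. Replicates 1 and 3 were MMTV-Cre-; Frmd8 fl/fl; PyMT (Cre-) and replicates 2 and 4 were MMTV-Cre+; Frmd8 fl/fl; PyMT (Cre+). In Cre+ mice the Cre recombinase that removes Frmd8 is driven by MMTV, a promoter used for mammary epithelium, so the dendritic cells are not the cells the deletion was aimed at. The libraries held 122658098 and 126843597 UMIs in Cre- and 112729231 and 157662955 in Cre+. Replicates 1 to 3 were deposited as filtered tables with 7020 and 8017 barcodes in Cre- and 7411 in Cre+ replicate 2, whereas Cre+ replicate 4 was deposited unfiltered with 2582424 barcodes. The UMI and mitochondrial limits above were therefore applied alike to all 4 libraries.

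Conventional dendritic cells take up antigen in tissue and, after activation, enter a mature migratory state. In that state the chemokine receptor CCR7 guides them along lymphatic vessels to lymph nodes, and fascin (Fscn1), an actin-bundling protein, supports their long dendrites. There they show peptides on MHC molecules together with costimulatory ligands to T cells. In tumors, such cells are also known to carry ligands that restrain T cells, such as PD-L1, and to make chemokines that draw T cells, such as CCL22.

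The label was first set against 10 markers of the mature state that the rule did not use: Ccl22, Cacnb3, Il4i1, Socs2, Relb, Samsn1, Tbc1d4, Tmem123, Marcksl1 and Birc3. Wherever 4 values follow each other below, replicates 1 and 3 of Cre- come first and replicates 2 and 4 of Cre+ last. The mature cells of these libraries had a median of 10, 9, 10 and 9 of these markers, and the lowest cell of each library had 7, 6, 6 and 8. Comparison cells had a median of 3, 4, 3 and 3 and a highest of 9, 9, 7 and 7. Some comparison cells thus reached the range of the mature cells in 3 of the 4 libraries. At least 5 of the 10 markers were found in 24 of 104, 56 of 206, 35 of 140 and 13 of 126 comparison cells. The summed level of the 10 markers was 9500, 9861, 9778 and 8292 CPM, that is UMIs per 1000000 UMIs of the summed cells, in mature cells, against 856, 758, 614 and 418 CPM in comparison cells. Every one of the 65 cells thus carried most of the list, and the markers fit the label. The list was chosen with earlier results of these data known, and Ccl22 was a given marker of these cells. This is therefore a description and no independent check of the label.

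Defining genes of other cell types were low or at 0 in the mature cells. Of the T cell list (7 genes), Cd3d, Cd3g, Trbc2, Cd2 and Cd28 had no UMI, and the sum was 5.69, 2.59, 0 and 0 CPM. The natural killer cell list (5 genes) summed to 0, 0, 0 and 20.5 CPM, all of it Gzma. For B cells (6 genes) the sum was 34.1, 20.7, 11.3 and 30.8 CPM, led by Ighm, with Ms4a1 and Pax5 at 0. The macrophage list (9 genes) reached 73.9, 174, 283 and 164 CPM in mature cells and 2823, 2663, 3460 and 3492 CPM in comparison cells. Its most abundant gene was Apoe, and Mertk had no UMI in mature cells. Monocyte genes (6) summed to 347, 95.8, 11.3 and 41.1 CPM, mostly Plac8 save in Cre+ replicate 2, with Ccr2, Chil3 and Fcgr4 at 0. Neutrophil genes (5) summed to 5.69, 5.18, 0 and 10.3 CPM. Epithelial genes (8) summed to 301, 339, 804 and 226 CPM, against 388, 301, 322 and 247 CPM in comparison cells, so Cre+ replicate 2 stood above the rest. Most of this was Wfdc18, a secreted protein of the mammary gland, at 199, 158, 521 and 164 CPM, together with the milk protein gene Csn3 at 96.6, 161, 193 and 20.5 CPM. In Cre+ replicate 2, 1 cell gave 37 of the 46 Wfdc18 UMIs. In cells gated as epithelial (Epcam, Krt8 and Krt18 at least 5 per 10000, class II genes under 5), Wfdc18 stood at 22354, 15760, 11612 and 17568 CPM. Fibroblast genes (6) summed to 56.9, 155, 79.3 and 20.5 CPM, and endothelial genes (5) to 45.5, 18.1, 22.7 and 10.3 CPM. Among comparison cells single libraries stood apart, with fibroblast genes at 1333 CPM in Cre- replicate 3 (42.1, 114 and 25.6 CPM in the others) and neutrophil genes at 672 CPM in Cre+ replicate 4 (38.3, 17.6 and 17.3 CPM in the others). Of the UMIs behind these, 1 cell held 4299 of 4552 and 1 cell 1128 of 1179. The part of this RNA in any result below was not tested.

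As the rule used them, Ccr7 and Fscn1 describe how the cells were chosen and carry no test. Ccr7 stood at 3445, 2808, 2821 and 2904 CPM in mature cells and 139, 117, 10.0 and 16.5 CPM in comparison cells. Fscn1 stood at 1740, 1958, 2572 and 1796 CPM and at 0.766, 11.7, 3.18 and 7.98 CPM. Per cell, the sum of both genes had a median of 51.5 and a highest value of 99.2 per 10000. The cells just inside the limit of 5 had 7.35, 7.39 and 14.5 per 10000, and those just outside it, with every other condition met, had 4.73 and 2.62. The limit thus lay in a sparse range, and 63 of the 65 cells were at 10 or more. The class II limit was less clear-cut: the lowest mature cell had 21.9 per 10000, the median was 94.2 and the highest 957, and 6 further cells were left out by that condition alone. Another 20 cells (5, 10, 3 and 2 by library) were left out because 1 of Ccr7 and Fscn1 had no UMI. By the definition of the comparison cells, those with at least 50 per 10000 of the class II genes count among them. A UMI of Ccr7 was found in 11, 20, 6 and 4 comparison cells.

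The mature cells numbered 15, 32, 9 and 9, of 4501, 5174, 5163 and 6054 cells. Their share of all cells was 0.333% (95% exact Clopper-Pearson interval 0.187 to 0.549) in Cre- replicate 1 and 0.618% (0.423 to 0.872) in Cre- replicate 3. It was 0.174% (0.0797 to 0.331) in Cre+ replicate 2 and 0.149% (0.0680 to 0.282) in Cre+ replicate 4. Both Cre+ libraries lay below both Cre- libraries, although the intervals of Cre- replicate 1 and the Cre+ libraries overlapped. These intervals cover counting error only. Cre- libraries averaged 0.476% ± 0.202 and Cre+ libraries 0.161% ± 0.0181 (SD, n = 2 each), so Cre+ lay at -0.314 percentage points relative to Cre-. With 2 libraries against 2, the two-sided exact permutation test gave p = 0.333, the smallest value this design allows, so the difference could not pass a threshold of 0.05.

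Among class II-high, C1q-low cells (mature and comparison cells together), the mature cells made up 12.6% (7.23 to 19.9), 13.4% (9.38 to 18.4), 6.04% (2.80 to 11.2) and 6.67% (3.09 to 12.3). Here Cre- averaged 13.03% ± 0.594 and Cre+ 6.35% ± 0.443 (SD, n = 2 each), again with p = 0.333 (exact permutation test, two-sided). The class II limits differ, at 20 per 10000 for mature and 50 for comparison cells, and 23 of the 65 mature cells (3, 12, 4 and 4) were under 50. With the limit of 50 for both, a setting added after seeing the data, 12 of 116, 20 of 226, 5 of 145 and 5 of 131 cells were mature, or 10.3%, 8.85%, 3.45% and 3.82%. Both Cre+ libraries again lay below both Cre- libraries (p = 0.333, exact permutation test). As a share of cells with a UMI of Ptprc, the pan-leukocyte gene for CD45, they were 0.880%, 1.38%, 0.439% and 0.326%. Where Cre+ replicate 4 was held to a limit of 10978 UMIs, set from its own barcodes by an order-of-magnitude rule, 3 of its mature cells were left, 0.0778% of 3854 cells. The plot of shares by library shows the counts behind each value.

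**Figure D1:**
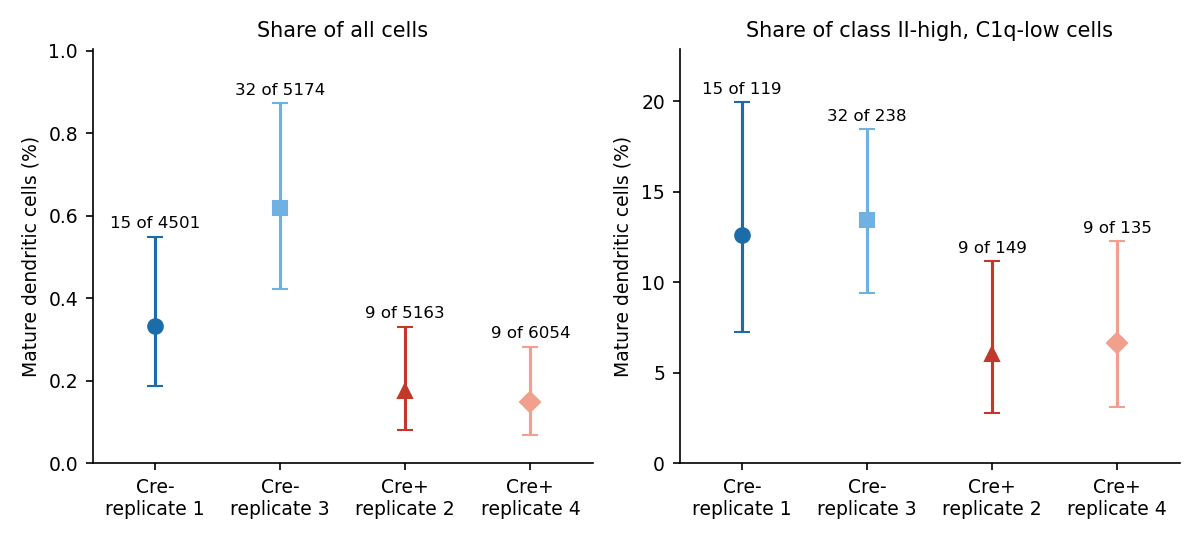
Share of mature dendritic cells in each library, in percent of all cells (left) and in percent of mature and comparison cells together (right; class II limits of 20 and 50 per 10000). Points are libraries, bars are 95% exact Clopper-Pearson intervals and the numbers above them are cell counts: both Cre+ libraries (9 and 9 cells) lie below both Cre- libraries (15 and 32 cells).

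The mature cells had a median of 12081, 11807, 8006 and 9294 UMIs, against 12083.5, 14610.5, 13627.5 and 12415 in comparison cells, and none exceeded 25040. No barcode of a mature or comparison cell was shared between libraries. Their summed UMIs came to 175899, 386056, 88262 and 97442, so 1 UMI was worth more CPM in the Cre+ libraries. At 0 UMIs in all 4 libraries, the level that 3 UMIs would have given over the pooled mature cells (747659 UMIs) was 4.013 CPM, and over the pooled comparison cells (8674084 UMIs) 0.3459 CPM. Folds against a class at 0 are lower bounds set by these floors.

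To ask what else set the mature cells apart, UMIs were summed per library and class, and the 2 classes were compared within each mouse by edgeR's quasi-likelihood test. Of 6721 genes tested, 2304 (34.3%) passed a Benjamini-Hochberg adjusted p of 0.05, with 1024 (15.2%) higher and 1280 (19%) lower in mature cells. The balance moved with the setting, to 958 higher and 1454 lower with relative log expression scaling, 832 and 1515 with the UMI limit in Cre+ replicate 4, and 527 and 490 of 1973 with comparison sums thinned to the mature cells' totals. A list's count is read against these shares. The 14 genes of the rule were not tested. Every other gene was read in the same cells that the rule picked, so genes that go with Ccr7 and Fscn1 from cell to cell differ through the choice of cells. A gene could also enter the test through the class where it is high alone. The median log2 fold change of all tested genes was -0.11, and other scalings placed it at -0.19 (relative log expression) and -0.22 (DESeq2). The levels of the same gene are compared between classes here, never those of different genes.

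All 10 mature markers outside the rule were higher in mature cells in every mouse, with a median log2 fold change of 4.44. Ccl22, a chemokine that binds CCR4 on regulatory and other T cells, stood at 1217, 1062, 646 and 708 CPM in mature cells and 36.8, 62.4, 21.8 and 26.2 CPM in comparison cells. The classes did not overlap (39.3% of all tested genes did not), and the log2 fold change was 4.76 ± 0.21 (SE, adjusted p = 6.7e-14, edgeR). Its UMIs were uneven over cells: 52 of 65 cells had one, the median was 2.66 per 10000, and in Cre- replicate 3 a single cell held 222 of that library's 410 UMIs. Il4i1, a secreted enzyme that breaks down aromatic amino acids, was at 588 ± 100 CPM (SD, n = 4) against 20.7 ± 12.8. Socs2, an inhibitor of cytokine signalling, was at 538 ± 82.8 CPM against 13.4 ± 8.26. Cacnb3, a calcium channel subunit, was at 552 ± 59.5 CPM against 4.48 ± 2.57, the highest fold of the list at 7.07 ± 0.32 on the log2 scale (SE). Birc3, an inhibitor of apoptosis, had the smallest at 1.46 ± 0.23.

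Genes shared by conventional dendritic cells moved both ways. Flt3, the receptor for the dendritic cell growth factor FLT3L, was at 227, 184, 125 and 113 CPM in mature cells and 105, 71.7, 70.9 and 46.2 CPM in comparison cells (log2 fold change 1.30 ± 0.23, SE, adjusted p = 0.00011, edgeR). Zbtb46, a transcription factor of the conventional lineage, was at 56.9, 54.4, 68.0 and 71.8 CPM against 24.5, 24.6, 18.2 and 23.9 (1.51 ± 0.33, adjusted p = 0.00086, edgeR). Against comparison cells with a UMI of Flt3 or Zbtb46 alone, which picks on these genes, neither gene was called higher. Itgax, the integrin CD11c, fell from 136 ± 17.3 CPM (SD, n = 4) in comparison cells to 12.04 ± 15.03 in mature cells, and Kmo and Bcl11a fell with it.

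Markers of the 2 conventional subsets were mostly lower. Of 9 genes of cDC1 (the subset that cross-presents antigen to CD8 T cells), 2 were higher and 7 lower. Xcr1, its chemokine receptor, had 1 UMI in the mature cells, a level 69.6-fold higher in comparison cells (counting interval 12.5 to 2751). Clec9a, a receptor for dead cells, was at 0, 2.59, 34.0 and 0 CPM against 40.6, 32.2, 51.8 and 68.4, and Tlr3 had no UMI (at least 11.1-fold lower). Batf3, a transcription factor needed for the subset, was instead higher at 171, 231, 351 and 308 CPM against 100.4, 108, 136 and 82.1 (log2 fold change 1.38 ± 0.22, SE), as was Irf8 (0.54 ± 0.19), whose classes overlapped. Of 7 tested genes of cDC2 (the subset that primes CD4 T cells), 6 were lower and none was higher. Cd209a and Clec10a, C-type lectins, had no UMI in any mature cell and were at least 72.5-fold and 45.6-fold lower. Irf4 was not called, at 56.9, 36.3, 0 and 10.3 CPM against 56.7, 24.9, 31.8 and 19.4. Plasmacytoid genes gave 5 lower of 6, with Siglech at 0 UMIs (at least 12.8-fold lower). The plot of named genes by library shows these levels.

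**Figure D2:**
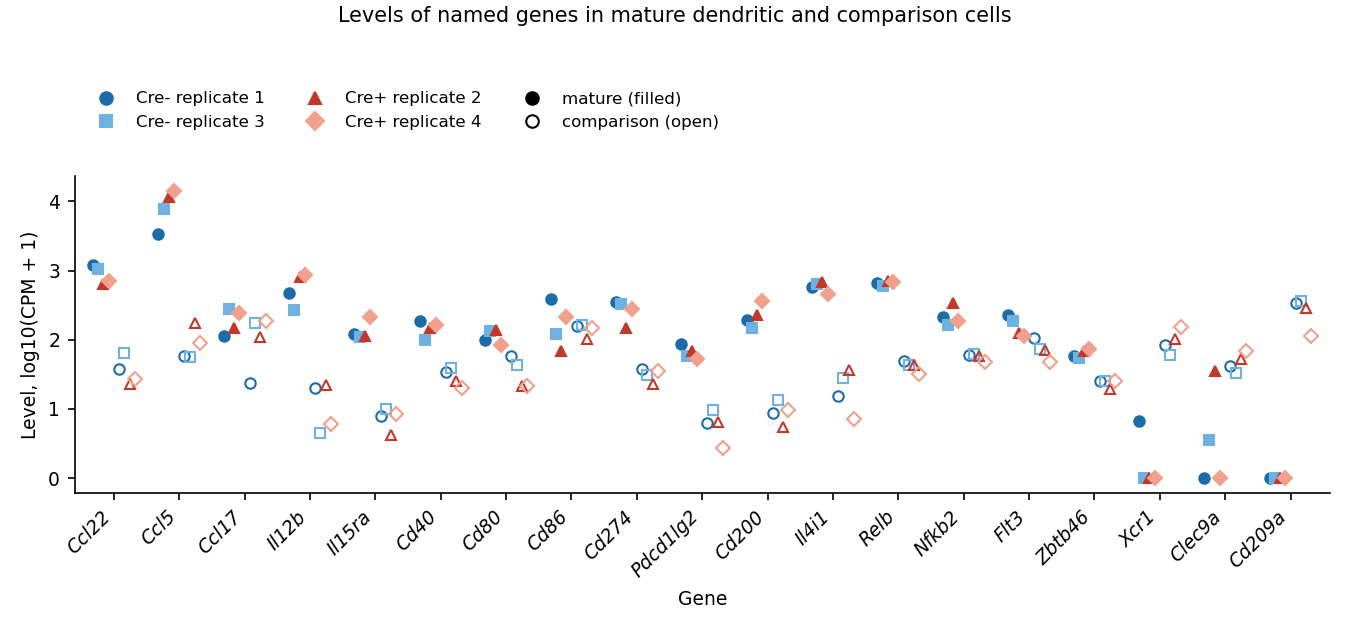
Levels of 19 genes in mature (filled) and comparison cells (open) of each library, as log10(CPM + 1). Ccl22, Ccl5, Il12b and Cd274 lie higher in the mature cells of all 4 libraries, while Xcr1 and Cd209a lie at or near 0 there, and Ccl17, Cd86 and Clec9a overlap between the classes.

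Macrophage and monocyte genes were lower in mature cells without exception among those tested (8 of 8 and 6 of 6). Ccr2, the receptor that brings monocytes into tissue, was at 654, 630, 932 and 564 CPM in comparison cells and had no UMI in mature cells, at least 174-fold lower. Cd14, a co-receptor for bacterial lipopolysaccharide, was at 5.69, 10.4, 22.7 and 0 CPM against 628, 616, 683 and 548. The B cell gene Ighm was lower in mature cells, the epithelial genes Wfdc18 and Csn3 were not called, and no gene of the T cell, natural killer cell, neutrophil or endothelial lists was high enough to test. The fibroblast collagen genes Col1a1, Col1a2 and Col3a1 passed the test as lower, with overlapping classes, and Col1a1 and Col3a1 were higher in mature cells in 2 of 4 mice. Among the comparison cells of Cre- replicate 3, 1 cell held 4299 of the 4552 fibroblast UMIs. Without that library Col3a1 differed by 0.062 on the log2 scale (adjusted p = 0.96, edgeR), and Col1a1 and Col1a2 were too low to test. Comparison cells thus include cells with monocyte and macrophage transcripts, and every contrast below is set against that mixture.

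The list of migration receptors and motility genes gave 8 higher and 4 lower of 13 tested (median log2 fold change 2.11). Cacnb3, which is also a mature marker, and Eno3, a glycolytic enolase, led the genes that rose. Eno3 went from 9.96, 7.32, 5.002 and 21.1 CPM to 358, 402, 351 and 267 CPM (log2 fold change 5.25 ± 0.33, SE). Marcks, which links membrane and actin, rose 2.11 ± 0.17 and its relative Marcksl1 2.53 ± 0.19 on the log2 scale. Anxa3, an annexin, was at 267, 495, 680 and 164 CPM against 29.9, 41.3, 46.8 and 33.1. Receptors for inflammatory chemokines lay the other way: Ccr2, Ccr1 and Cx3cr1 fell, with Cx3cr1 at 5.69, 2.59, 0 and 0 CPM against 69.7, 54.2, 50.5 and 98.6. Cxcr4, the receptor for CXCL12, was not called and overlapped.

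Chemokine ligands split, with 4 higher and 7 lower of 12 tested (median log2 fold change -3.35). Ccl5, which attracts T cells and other leukocytes, was at 3326, 7755, 11387 and 14244 CPM in mature cells and 56.7, 55.6, 175 and 87.8 CPM in comparison cells, a log2 fold change of 6.71 ± 0.24 (SE, adjusted p = 2.4e-15, edgeR). Its level was higher in both Cre+ libraries than in both Cre- libraries, and 60 of 65 cells had a UMI. In Cre- replicate 1, 1 cell held 393 of the 585 Ccl5 UMIs. Cxcl16, a ligand of CXCR6, was at 984, 1005, 1065 and 1006 CPM against 244, 214, 163 and 227. Its mature values lay within 984 to 1065 CPM. Ccl17, a second CCR4 ligand, was at 114, 280, 147 and 246 CPM against 22.99, 174, 110 and 185, and the classes overlapped (0.98 ± 0.27, adjusted p = 0.0057, edgeR). That call was lost without the block on mouse and without Cre- replicate 1. Only 19 of 65 mature cells had a UMI of Ccl17. By library, 1 cell held 9 of 20, 64 of 108, 11 of 13 and 17 of 24 of these UMIs. Cxcl9 was not called, and 91 of its 95 UMIs lay in 1 cell. The ligands that fell included several known from inflammatory myeloid cells. Cxcl2, which draws neutrophils, stood at 5.69, 12.95, 0 and 30.8 CPM against 785, 1002, 1592 and 820, and Ccl6 at 11.4, 10.4, 34.0 and 0 CPM against 837, 1193, 1435 and 545. Ccl4, Ccl9, Ccl2, Ccl3 and Cxcl10 were lower too.

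Levels in other gated cells placed the main chemokines. Macrophages, taken as cells with at least 10 per 10000 of C1q genes, had 0.68, 3.66, 0.60 and 0.33 CPM of Ccl22, and T cells (Cd3e above 0) had no UMI of it. Ccl5 was shared with T cells, which had 3151, 4093, 4966 and 1449 CPM, and was at 63.3, 63.9, 59.0 and 90.3 CPM in macrophages. The T cell range overlapped that of the mature cells. Among receptors, Ccr4 was at 16.0, 16.1, 24.6 and 3.90 CPM in T cells and had no UMI in mature or comparison cells, and Cxcr6 was at 260, 416, 333 and 238 CPM in T cells with no UMI in mature cells. Ccl19, a CCR7 ligand, was found at 15.7, 41.6, 26.1 and 17.1 CPM in the remaining ungated cells. The plot of levels by class of cells shows 6 such genes.

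**Figure D3:**
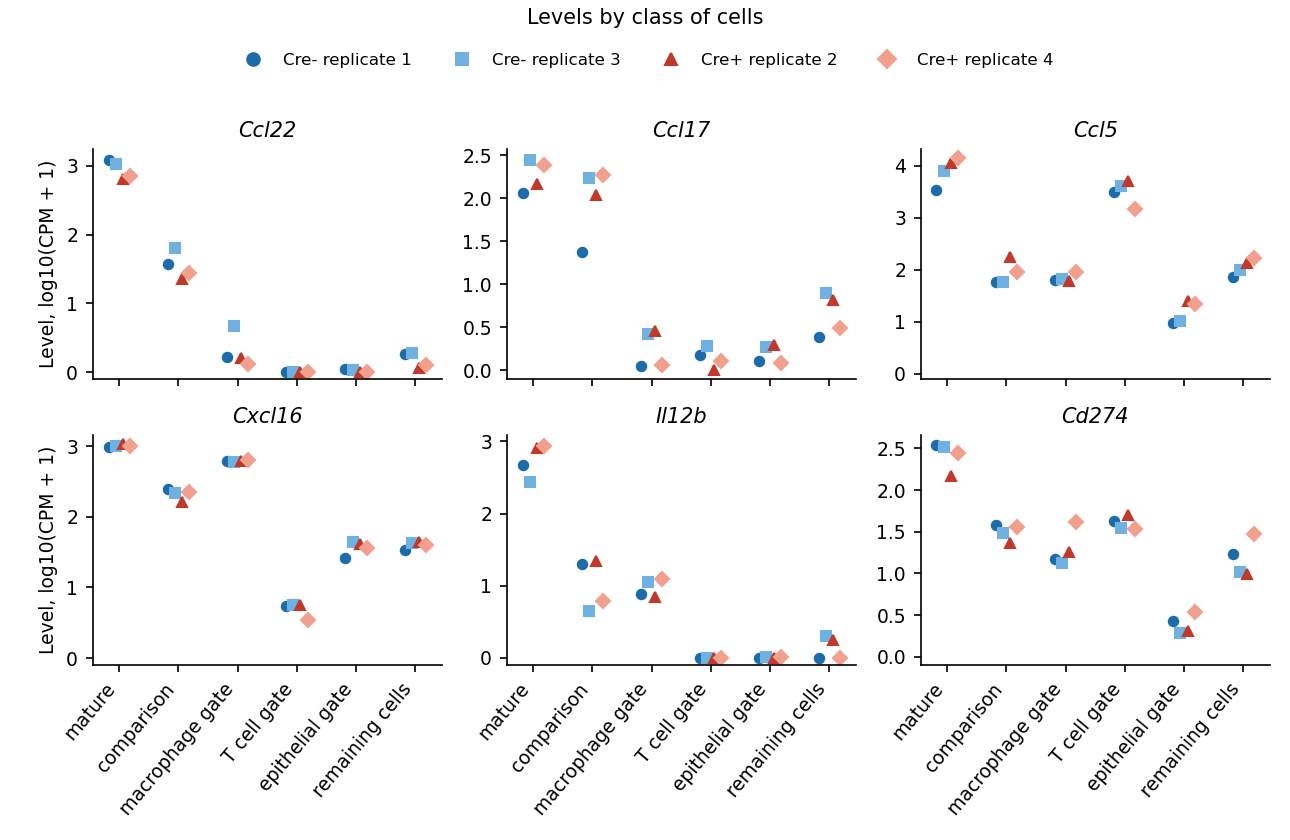
Levels of Ccl22, Ccl17, Ccl5, Cxcl16, Il12b and Cd274 in mature, comparison, macrophage, T cell, epithelial and remaining cells, as log10(CPM + 1), with 1 point per library. Mature cells are highest for Ccl22, Il12b and Cd274 in all 4 libraries, Ccl5 is also high in T cells, and Cxcl16 is also high in macrophages.

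The share of cells with a UMI depends on depth, so cells were thinned to 2000 UMIs each. After thinning, Ccl22 had a UMI in 60.0%, 34.4%, 44.4% and 88.9% of mature cells and in 4.81%, 4.37%, 2.14% and 1.59% of comparison cells. Unthinned, its shares in mature cells were 80.0%, 71.9%, 100% and 88.9%. Epithelial cells, which should lack Ccl22 and so give a partial view of free RNA, had a thinned share of 0%, 0.101%, 0% and 0%. For Ccl5 the thinned shares were 60.0%, 81.2%, 88.9% and 100% in mature cells, 54.5%, 52.2%, 65.0% and 50.8% in T cells and 0.691%, 1.01%, 0.967% and 1.01% in epithelial cells. Both genes thus stood well above the epithelial share in every library.

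Ligands for T cell costimulation gave 5 higher, 2 lower and 1 not called of 8 tested (median log2 fold change 1.08). Cd40, which receives the T cell help signal CD40L, was at 188, 98.4, 147 and 164 CPM against 32.9, 38.6, 24.1 and 18.8 (2.39 ± 0.29, SE, adjusted p = 4.8e-07, edgeR). Cd80, a ligand of CD28 and CTLA-4, was at 96.6, 135, 136 and 82.1 CPM against 56.7, 42.5, 20.5 and 20.5 (1.81 ± 0.30). Its partner Cd86 was not called, at 381, 122, 68.0 and 216 CPM against 159, 161, 102 and 147. Icosl, the ligand of ICOS, was higher on average (2.28 ± 0.37) but had no UMI in Cre+ replicate 4. Cd48 fell, at 39.8, 46.6, 56.6 and 61.6 CPM against 219, 247, 222 and 244, and so did Tnfsf9, the ligand of 4-1BB, with overlap.

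Inhibitory and regulatory molecules gave 7 higher, 2 lower and 2 not called of 11 tested (median log2 fold change 3.28). Il4i1 and Socs2, which are also mature markers, belong to this list. Cd274, which encodes PD-L1, was at 347, 329, 147 and 277 CPM in mature cells and 36.8, 29.9, 22.3 and 34.8 CPM in comparison cells, a log2 fold change of 3.28 ± 0.24 (SE, adjusted p = 2.1e-10, edgeR), and 53 of 65 cells had a UMI. Pdcd1lg2, which encodes the second PD-1 ligand PD-L2, was at 85.3, 57.0, 68.0 and 51.3 CPM against 5.36, 8.78, 5.46 and 1.71 (3.58 ± 0.42). Cd200, which acts on an inhibitory receptor of myeloid cells, was at 193, 148, 227 and 359 CPM against 7.66, 12.6, 4.55 and 8.55 (4.74 ± 0.31). None of the 3 overlapped between the classes, which held for 39.3% of all tested genes. Socs1, an inhibitor of interferon signalling, was higher as well (3.51 ± 0.39). Socs3, which restrains IL-6 signalling, and Lgals9, which encodes galectin-9, were lower. Ido1, a tryptophan-degrading enzyme often used as a marker of regulatory dendritic cells, had 11.4, 5.18, 0 and 0 CPM and was too low to test.

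Among cytokine genes 4 were higher and 6 lower of 11 tested (median log2 fold change -0.89). Il12b, the shared p40 subunit of IL-12 and IL-23, was at 472, 272, 804 and 862 CPM against 19.2, 3.51, 20.9 and 5.13 (5.83 ± 0.32, SE, adjusted p = 1.6e-12, edgeR). The partner subunits Il12a and Il23a had no UMI in mature cells. Il12b was found in 26 of the 65 cells. Il15ra, which presents IL-15 to lymphocytes, was at 119, 109, 113 and 216 CPM against 6.90, 9.08, 3.18 and 7.41, and Il15 itself rose 2.85 ± 0.40 on the log2 scale. Il2ra, the alpha chain of the IL-2 receptor, was at 199, 109, 170 and 154 CPM against 3.06, 8.20, 9.55 and 1.71. Il1b, an inflammatory cytokine, was at 1103, 762, 11.3 and 1601 CPM against 3696, 3643, 2807 and 3640. Tnf, also inflammatory, Tgfb1, which restrains T cells, and Il1rn, the antagonist of IL-1, were lower, with log2 fold changes of -4.06, -2.29 and -0.89.

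The NF-kappaB list gave 12 higher, none lower and 5 not called of 17 tested (median log2 fold change 1.74). NF-kappaB factors drive dendritic cell maturation, and the non-canonical arm works through the kinase NIK (Map3k14) and the subunits RelB and p100/p52 (Nfkb2). Relb, which is also a mature marker, was at 665, 604, 702 and 688 CPM against 49.0, 42.2, 41.8 and 30.8 (4.13 ± 0.21, SE, adjusted p = 5.0e-13, edgeR). Nfkb2 was at 210, 163, 340 and 185 CPM against 58.2, 60.6, 57.8 and 46.7 (2.03 ± 0.23). Map3k14 was at 279, 233, 442 and 174 CPM against 84.3, 46.0, 37.7 and 45.03 (2.51 ± 0.26). The canonical subunit Nfkb1 was not called, at 290, 199, 215 and 226 CPM against 277, 187, 177 and 152, while Rel (2.05 ± 0.17) and Rela (0.89 ± 0.27) were higher. The signalling adaptor Traf1 and the apoptosis inhibitor Birc2 rose by 2.63 ± 0.17 and 4.06 ± 0.21 on the log2 scale. Of the feedback inhibitors, Nfkbib and Nfkbia were higher, and Nfkbie, Tnfaip3, Tnip1 and Tnip3 were not called. Bcl2a1b and Bcl2a1d were higher, but they are near-identical paralogs and their split is uncertain.

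Genes of the MHC class I pathway, which loads peptides from the cytosol for CD8 T cells, were called higher in 15 of 16 tested (median log2 fold change 1.15), and Tap1 was not called. H2-K1 was at 2422, 2950, 2923 and 2853 CPM against 1208, 1036, 1145 and 1368 (1.34 ± 0.15, SE, adjusted p = 1.9e-07, edgeR). B2m, the common light chain, was at 4525, 5362, 5665 and 4834 CPM against 2128, 1868, 1924 and 2824 (1.34 ± 0.15). Psme2, a proteasome activator subunit, was at 1171, 1352, 1122 and 1437 CPM against 264, 281, 254 and 299 (2.32 ± 0.16). Nlrc5, the class I transactivator, rose 2.33 ± 0.36. H2-Q4, H2-Q6 and H2-Q7 were higher too, but their reads can be split between near-identical copies. H2-M2, a non-classical class I gene, was at 68.2, 132, 374 and 92.4 CPM with no UMI in comparison cells, at least 406-fold higher, and 22 of 65 cells carried it. By library, 1 cell held 11 of 12, 24 of 51, 19 of 33 and 8 of 9 of its UMIs.

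To show what lies upstream of such genes, the 250 bases before the transcript start in the RefSeq table (GRCm38.p6) are printed for 3 class I and 2 NF-kappaB genes, chosen because they were higher in mature cells and hold a match to the kappaB consensus by name, a 10-base motif read on both strands. Where the table lists several starts (3 for Nfkb2, 2 for H2-K1), the one with the most matches is shown. Capitals mark the matches, overlapping ones merged, and each sequence runs 5′ to 3′ on the strand of its gene.
Nfkb2 (chr19:46304487-46304736, plus strand, 3 matched positions): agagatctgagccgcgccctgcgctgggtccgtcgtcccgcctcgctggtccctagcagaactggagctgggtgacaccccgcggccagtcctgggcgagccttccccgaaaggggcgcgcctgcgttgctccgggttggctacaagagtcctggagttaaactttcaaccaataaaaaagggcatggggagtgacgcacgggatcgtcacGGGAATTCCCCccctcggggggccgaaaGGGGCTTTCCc
Rel (chr11:23770970-23771219, minus strand, 2 overlapping positions): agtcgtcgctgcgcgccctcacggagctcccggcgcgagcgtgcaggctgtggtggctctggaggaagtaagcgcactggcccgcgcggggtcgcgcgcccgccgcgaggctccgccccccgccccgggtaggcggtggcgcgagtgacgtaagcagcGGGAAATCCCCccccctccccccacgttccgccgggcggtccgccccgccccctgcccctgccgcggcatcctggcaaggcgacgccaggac
H2-M2 (chr17:37483555-37483804, minus strand, 2 positions): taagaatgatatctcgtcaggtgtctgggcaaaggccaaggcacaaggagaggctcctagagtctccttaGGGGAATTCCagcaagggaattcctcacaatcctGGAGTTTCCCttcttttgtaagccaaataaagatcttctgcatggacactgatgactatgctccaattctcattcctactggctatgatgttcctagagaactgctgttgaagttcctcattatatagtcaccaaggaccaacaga
H2-K1 (chr17:34000334-34000583, minus strand, 2 overlapping positions): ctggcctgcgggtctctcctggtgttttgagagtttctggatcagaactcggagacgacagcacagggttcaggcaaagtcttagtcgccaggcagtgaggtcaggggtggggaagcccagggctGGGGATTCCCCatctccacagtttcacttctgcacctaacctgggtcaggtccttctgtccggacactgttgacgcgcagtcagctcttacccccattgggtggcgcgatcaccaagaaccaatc
B2m (chr2:122147437-122147686, plus strand, 1 position): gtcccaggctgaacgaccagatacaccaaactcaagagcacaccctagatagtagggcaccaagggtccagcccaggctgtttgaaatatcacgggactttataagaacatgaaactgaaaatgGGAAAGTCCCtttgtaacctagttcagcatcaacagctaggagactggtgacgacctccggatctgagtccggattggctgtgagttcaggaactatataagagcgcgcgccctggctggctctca
The match nearest to the start began 11 bases before it in Nfkb2, 91 in Rel, 146 in H2-M2, 124 in H2-K1 and 126 in B2m. Over the genome 1281 of 32851 promoters (3.90%) held the motif in this window, and 4.46% of genes did. Of the genes higher in mature cells with a promoter in the table, 78 of 830 (9.40%, of 1024 higher genes) held it, against 52 of 997 lower genes (5.22%) and 190 of 3604 genes not called (5.27%). In the NF-kappaB list it was found in 8 of 16 matched genes and in the class I list in 6 of 14. The NF-kappaB list was made of subunits, inhibitors and targets of these factors, so its share can follow from the choice of genes. The mature marker list was taken here as 12 genes, 2 of them used by the rule, and 0 of 9 matched genes held the motif. A match describes the letters in this window, not binding.

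The class II pathway outside the rule gave 3 higher, 6 lower and 3 not called of 12 tested (median log2 fold change -0.76). Comparison cells needed at least 50 per 10000 of class II genes and mature cells 20, so these genes can differ through the choice of cells. The peptide-loading genes H2-DMa and H2-DMb1 were lower, H2-DMb1 at 45.5, 67.3, 11.3 and 41.0 CPM against 746, 780, 864 and 826 (-3.92 ± 0.27, SE). Ciita, the class II transactivator, was at 62.5, 77.7, 11.3 and 20.5 CPM against 195, 160, 184 and 127. March1 (Marchf1), a ubiquitin ligase that removes class II from the surface, had no UMI in mature cells, at least 21.3-fold lower. H2-Eb2 lay the other way at 301, 174, 102 and 123 CPM against 17.6, 6.73, 2.27 and 5.13, and Cd63, a tetraspanin of late endosomes, at 1120, 1334, 1700 and 2042 CPM against 65.1, 128, 116 and 46.2.

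Genes of antigen uptake and lysosomes gave 17 lower, 1 higher and 1 not called of 19 tested, with a median log2 fold change of -4.17, or -4.06 where genes without UMIs were set to their bound. Lyz2, lysozyme of myeloid cells, was at 22.7, 72.5, 68.0 and 30.8 CPM against 3885, 5217, 8507 and 3611 (-6.51 ± 0.23, SE, adjusted p = 2.1e-15, edgeR). The mannose receptor Mrc1 was at 11.4, 5.18, 11.3 and 0 CPM against 206, 217, 315 and 56.4. The Fc receptors Fcgr3 and Fcgr2b and the scavenger receptors Cd36 and Msr1 were lower, Msr1 with no UMI (at least 14.3-fold). The proteases Ctsb, Ctsd and Ctsl were lower, with log2 fold changes of -1.81, -2.69 and -3.30. Ctsz was not called, and Lamp1, a lysosomal membrane protein, was the one gene that rose, at 546, 746, 884 and 647 CPM against 276, 257, 328 and 279. The plot of tested genes by list sets these groups side by side.

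**Figure D4:**
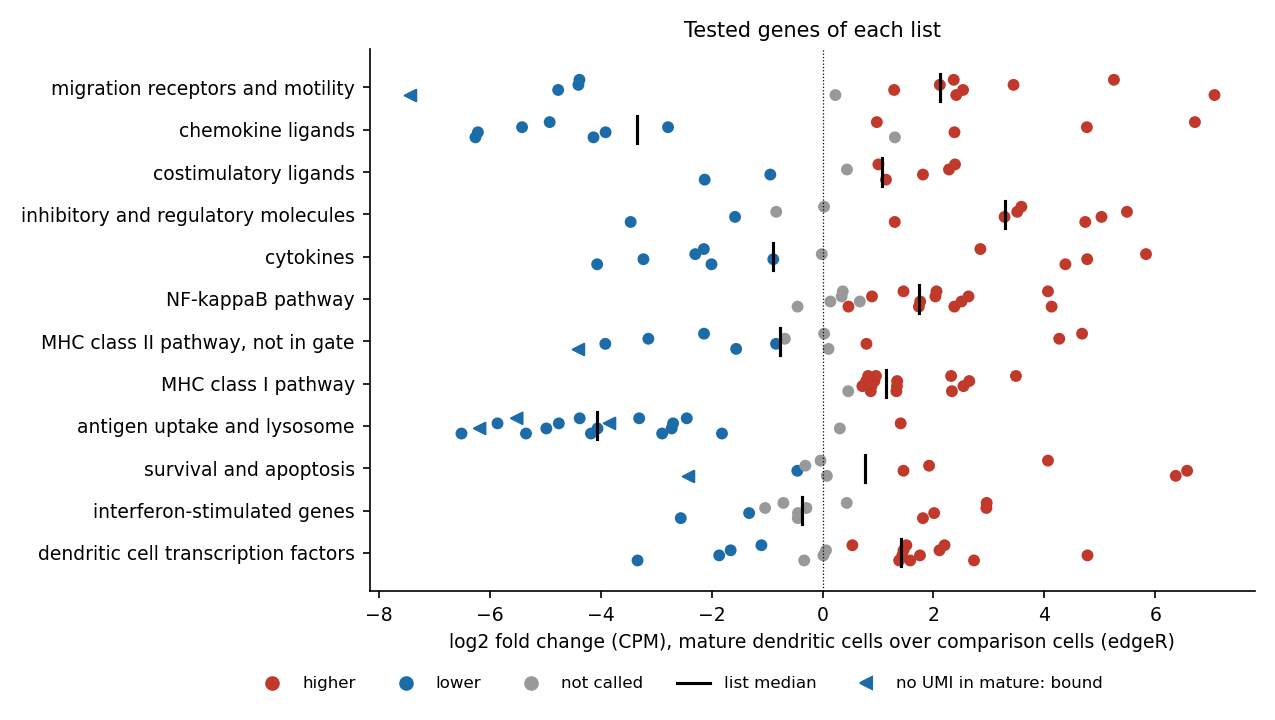
Log2 fold change of each tested gene in 12 lists, mature over comparison cells (edgeR, 4 mice). Red and blue points passed an adjusted p of 0.05, grey points did not, black bars are list medians and triangles are genes without a UMI in mature cells, drawn at their bound: class I genes lie to the right with a median of 1.15 and uptake genes to the left with a median of -4.06.

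Of the survival genes 5 were higher, 2 lower and 3 not called of 10 tested (median log2 fold change 0.77). Serpinb9, an inhibitor of granzyme B, was at 728, 319, 612 and 657 CPM against 3.83, 8.78, 8.19 and 5.13 (6.37 ± 0.30, SE, adjusted p = 1.3e-13, edgeR). Cflar, which blocks death receptor signalling, rose 1.92 ± 0.22, whereas Bcl2 had no UMI (at least 5.37-fold lower) and Mcl1 fell by 0.45 on the log2 scale. Interferon-stimulated genes gave 4 higher, 2 lower and 6 not called of 12 tested (median -0.37). Among those that rose were Irf1, Gbp2 and Gbp5, with Gbp5 at 56.9, 85.5, 56.6 and 92.4 CPM against 10.7, 12.3, 9.55 and 7.41. In Cre- replicate 1, 1 cell held 30 of the 51 Gbp2 UMIs. Isg15, Ifit1 and Irf7 were not called, and Ifit3 and Rsad2 were lower. Of the cell cycle genes 1 (Pcna) was lower and 6 were not called of 7 tested.

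Transcription factors of dendritic cells gave 11 higher, 4 lower and 3 not called of 18 tested (median log2 fold change 1.41). Stat4, which transmits IL-12 signals, was at 347, 262, 374 and 472 CPM against 15.3, 18.7, 7.73 and 12.5 (4.78 ± 0.27, SE, adjusted p = 3.2e-12, edgeR). Id2, needed for the cDC1 subset, rose 1.76 ± 0.15, Mxd1, an antagonist of Myc, 2.11 ± 0.21, and Etv3, a repressor of the ETS family, 2.20 ± 0.18 on the log2 scale. Spib rose 2.73 ± 0.45 and lost its call without Cre- replicate 3. The factors Klf4, Zeb2, Tcf4 and Batf were lower, Klf4 at 148, 46.6, 136 and 92.4 CPM against 580, 303, 342 and 284.

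Called genes with at least 50 CPM and the highest fitted folds lay partly outside the lists. Apol7c, an apolipoprotein L family gene, was at 108, 176, 56.6 and 154 CPM with no UMI in comparison cells, at least 414-fold higher, and Tmem150c was at least 217-fold higher. Apol7c was found in 19 of the 65 mature cells and Tmem150c in 30. By library, 1 cell held 13 of 19, 17 of 68, 2 of 5 and 9 of 15 of the Apol7c UMIs. Tcf7, best known as a transcription factor of T cells, had 79 UMIs over 29 of the 65 mature cells and 2 in comparison cells, a ratio of 458 (counting interval 123 to 3850). Tnfrsf4, the costimulatory receptor OX40, likewise known from T cells, was at 171, 212, 544 and 308 CPM against 1.53, 0.878, 2.27 and 0.570 (7.90 ± 0.33, SE, adjusted p = 2.7e-14, edgeR), with UMIs in 38 cells. Of the 7 T cell markers, 5 were at 0 UMIs in the same cells and Trac and Lck had 1 UMI each, but the rule had required Cd3e at 0. The other genes of this rank were Synpo2, Gm47662, Scin, Pakap and Nudt17, Synpo2 with 58 UMIs against 1 (ratio 673, interval 116 to 27030). At the other end, called genes with at least 50 CPM in comparison cells were ordered by their fitted log2 fold change, an order that depends on the prior count for genes at 0. The 10 named by it had no UMI in mature cells. They were Ccr2, Cd209a, Lyz1, Clec10a, Ifitm6, Clec4a3, Unc119, Clec4e, Rab7b and Emilin2, with bounds from 26.9-fold (Emilin2) to 174-fold (Ccr2). Genes with a UMI can differ by more than these bounds, as Mgl2, a lectin with 1 UMI in mature cells, was 258-fold higher in comparison cells (counting interval 46.2 to 10180).

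The mature cells differed among themselves, and Ccl5 and the class II genes are given as an example. These relations were chosen after their values were seen, join cells that share libraries, and are given as descriptions. The rule used the class II sum, which it cut at 20 per 10000, and Fscn1, so these values also reflect the choice of cells. Over the 65 cells, Spearman's rho between Ccl5 and the class II sum (both per 10000 UMIs) was -0.62, and by library it was -0.75 (15 cells), -0.68 (32), -0.18 (9) and -0.12 (9). The median of Ccl5 was 112 per 10000 in the 23 cells with class II under 50 and 13.6 in the 42 cells at 50 or more. By library these medians were 76.5 against 7.35, 138 against 15.7, 45.4 against 209.5 and 108 against 94.0. With Cd74 alone, rho was -0.66, -0.71, -0.60 and -0.40, negative in all 4 libraries. Ccl5 had a rho of 0.49 with Fscn1, and by library 0.67, 0.39, 0.22 and 0.43. With Ccr7 the values by library were -0.25, 0.16, 0.62 and -0.20, and with total UMIs -0.37, -0.14, 0.017 and 0.53, so neither kept 1 sign.

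**Figure D5:**
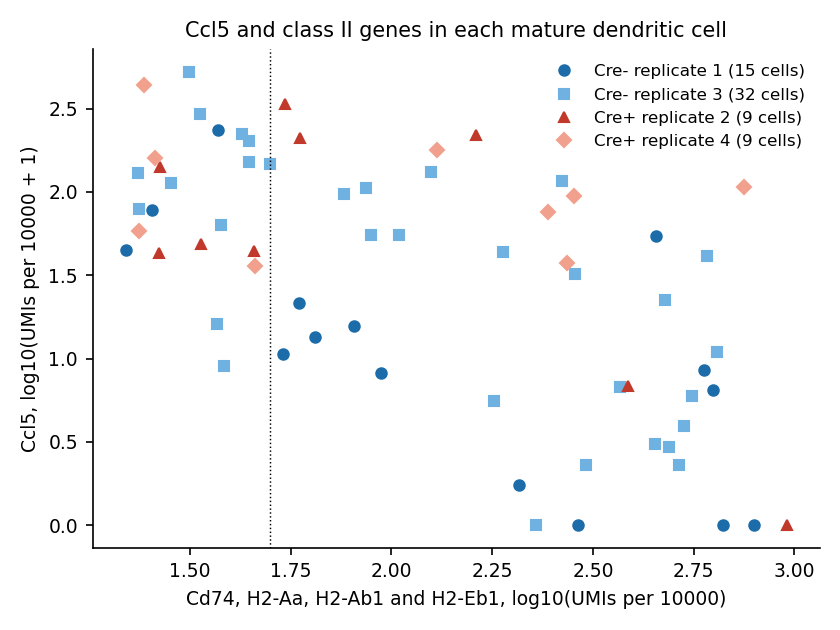
Ccl5 against the summed class II genes in each of the 65 mature cells, both as log10 of UMIs per 10000 (Ccl5 with 1 added), marked by library, with a dotted line at 50 per 10000. The rule cut the horizontal axis at 20 per 10000, and over all 65 cells, which share libraries, the points give a rho of -0.62.

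Between genotypes, 1915 genes were testable within mature cells and none (0%) was called by edgeR. At an unadjusted p under 0.05 there were 110, and DESeq2 called none, with 49 at that level. Leaving out 1 library, which left a lone sample in its genotype, gave 7 (without Cre- replicate 1), 31 (without Cre- replicate 3), 29 (without Cre+ replicate 2) and 3 calls (without Cre+ replicate 4). Ccl5 differed by 1.21 ± 0.42 on the log2 scale (SE, Cre+ over Cre-, adjusted p = 0.69, edgeR) and Il12b by 1.20 ± 0.32 (adjusted p = 0.67, edgeR), both with higher values in both Cre+ libraries. In Cre+ replicate 4, 1 cell held 60 of the 84 Il12b UMIs and 3 of 9 cells had any, and in Cre- replicate 3, 1 cell held 63 of 105. Ccl22 differed by -0.74 ± 0.25 and Cd274 by -0.64 ± 0.38 (adjusted p = 0.69 and 0.89, edgeR). Of the Ccl22 UMIs of Cre- replicate 3, 1 cell held 222 of 410. None of these passed the test, which does not show that the genotypes were alike. Frmd8, the floxed gene, had 4, 9, 2 and 1 UMIs in mature cells, or 22.7 CPM (exact interval 6.20 to 58.2), 23.3 (10.7 to 44.3), 22.7 (2.74 to 81.9) and 10.3 (0.26 to 57.2). In comparison cells it was at 25.3, 27.5, 21.4 and 17.7 CPM, and the class difference was not called (-0.08 ± 0.44, SE). A change of Frmd8 with genotype was not detectable in these cells at this depth. The labels do not say that the libraries of a group came from separate animals, so p-values measure only the spread between these samples, which may be technical.

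Whether the class difference itself depended on genotype was tested as an interaction, and 15 of 6721 genes (0.223%) were called by edgeR, 14 with a lower (0.208%) and 1 with a higher (0.0149%) log2 fold change of mature over comparison cells in Cre+. Ccnd1, cyclin D1, had 39, 184, 5 and 0 UMIs in mature cells, or 222, 477, 56.6 and 0 CPM, against 218, 206, 184 and 235 CPM in comparison cells. Plac8 had 59, 36, 0 and 4 UMIs, of which 1 cell held 30 of 59 and 1 cell 19 of 36 in the Cre- libraries, and Dusp2, a phosphatase of MAP kinases, 35, 87, 0 and 4. The proliferation genes Mki67, Pclaf and Stmn1 had 0 to 2 UMIs in the Cre+ libraries, and in the Cre- libraries most of their UMIs came from 1 cell each. Gclc, a subunit of the enzyme that makes glutathione's precursor, was the one gene with a positive interaction, at 73.9, 49.2, 215 and 133 CPM against 29.9, 18.4, 11.4 and 7.98. All 13 of its UMIs in Cre+ replicate 4 and 10 of 19 in Cre+ replicate 2 came from 1 cell each. Without Cre- replicate 1 there were 7 calls and without Cre- replicate 3 there were 6. DESeq2 called none of the 15, with 115 genes at an unadjusted p under 0.05.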

How the data were processed

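The data were 10x Genomics 3' single-cell libraries, and the raw UMI counts per gene and barcode deposited by the authors were used. Per the file headers the counts were made with Cell Ranger 6.1.2 in replicates 1 to 3 and Cell Ranger 4 in replicate 4, so the software differed within Cre+. The submitters' processing notes name hg38, whereas the gene identifiers are those of mouse, and no coordinates were taken from the count tables. Members and gene lists were chosen with earlier results of these data known.

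Cells were filtered as described in the report, and no doublet caller was run. UMIs were summed per library and class and tested with edgeR 4.0.16 (R 4.3.3) by quasi-likelihood, with TMM scaling, filterByExpr, the mouse as a block where both classes were compared, and Benjamini-Hochberg adjustment at 0.05. The SE of an edgeR log2 fold change was derived, as its absolute value divided by the square root of the test's F statistic. Exact permutation tests and intervals used scipy 1.17.1. DESeq2 1.42.0 was an alternative, next to other scaling, filters, cell limits, a narrower comparison group, thinned cells and each library left out. Named genes were fixed genes of interest, up to 4 called genes per list with the largest fold and 1 direction in 4 mice, and the 10 highest and 10 lowest called genes with at least 50 CPM. The other list members were described by counts. Steps were tested on simulated data. Clec7a and Mx1 were not analysed here.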

Additional observations from a re-analysis of the deposited data

Results flagged for a closer look

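For 15 genes the difference between mature and comparison cells itself differed between genotypes by the interaction test of edgeR (adjusted p under 0.05, class contrast in Cre+ minus that in Cre-, on the log2 scale). For Ccnd1 it was -3.77, for Plac8 -3.89 and for Dusp2 -3.54. Fitted values of genes without UMIs in a group depend on the prior count and are no bound. Among genes with no UMI in the mature cells of either Cre+ library, the values were -10.68 for Igfbp7, -9.90 for Mki67, -10.23 for Ms4a4c, -9.85 for Ms4a6c and -9.64 for Pclaf. Comparison cells had 6.13, 66.5, 505 and 11.97 CPM of Igfbp7, so Cre+ replicate 2 stood apart there, and mature cells of Cre- held 2 and 13 UMIs. In Cre- replicate 1, 1 cell held 22 of the 40 UMIs of Ms4a4c. In Cre- all UMIs of Pclaf lay in 1 cell of each library (11 and 32 UMIs), and 1 cell of each held 10 of the 13 and 14 of the 17 UMIs of Mki67. Stmn1 gave -4.12, with 29 of 41 and 49 of 52 UMIs in 1 cell of each Cre- library. Fabp4, a fatty acid binding protein, gave -4.74, and all of its 55 and 15 UMIs in Cre- came from 1 cell of each library. The values were -2.08 for Hmgb2, -1.87 for Gngt2 and -1.89 for Napsa, and 1 cell of each Cre- library held 70 of 107 and 44 of 82 UMIs of Hmgb2. Serpinb6b gave -2.23, with mature cells at 978, 679, 657 and 1190 CPM and comparison cells at 3.06, 3.81, 11.8 and 26.2 CPM, so its comparison cells and not its mature cells separated by genotype. Gclc gave 2.66, the one positive value, and 1 cell held all 13 of its UMIs in Cre+ replicate 4 and 1 cell 10 of 19 in Cre+ replicate 2.

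A barcode outside the cells analysed, with at least 500 but fewer than 2000 UMIs in Cre- replicate 1, met every other condition of the rule for mature cells (1 barcode).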

How the results depend on the processing

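Of 78 named genes in the class contrast, all but Ccl17, Flt3, Zbtb46, Spib and the collagen genes Col1a1, Col1a2 and Col3a1 kept their call in the 13 other settings where they were tested. The collagen genes lost theirs with no replicate block and with DESeq2, and only they changed sign, to 0.83, 0.52 and 0.43 (log2) in cells with fewer than 30000 UMIs and at most 5000 genes, and Col3a1 to 0.062 without Cre- replicate 3 (-2.29 without Cre- replicate 1). The class contrast called 2321 genes with no replicate block on the mouse (2221 shared with the 2304), 2412 with relative log expression scaling and 1920 with DESeq2. With each library left out it called 1661 (without Cre- replicate 3) to 2247. With comparison sums thinned to the mature cells' totals it called 1017 of 1973 tested, since fewer genes passed the filter. Between genotypes in mature cells, no filter on low counts gave 22 calls and leaving out 1 library gave 3 to 31, where the lone sample left is assumed to vary like the other group. The interaction had 0 calls with DESeq2 and 6 to 15 with each library left out, a setting added after seeing the data. Of the 15 genes, 3 to 8 were among those calls, each of the 15 lost its call in at least 1 setting, and the cause of these changes was not tested. The Cre+ minus Cre- share of mature cells kept its direction in every setting and ranged from -0.457 to -0.172 points of all cells, and from -7.09 to -6.25 points of class II-high, C1q-low cells, with 1 library left out. It was -5.96 points with 1 class II limit for both classes. No paired analysis was possible because the genotypes share no replicate number.

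Thinning lowered the mean share of cells with a UMI. Unthinned shares were 85.2% of mature and 7.05% of comparison cells for Ccl22 (thinned 56.9% and 3.23%), 78.6% and 21.0% for Cd274 (47.0% and 5.87%), 9.55% of comparison cells for Ccl5 (5.63%) and 2.78% for Il12b (1.48%). The 65 mature cells held 747659 UMIs in all against 8674084 in the 576 comparison cells, with 9 mature cells in each Cre+ library.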
